A study of Mus musculus with 10 samples.

Results

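The cytosolic ribosomal proteins are the protein part of the ribosome outside mitochondria, and their messages were followed here in ribosome-bound RNA of mouse striatum. Members were taken by gene symbol, as rows named Rpl or Rps with a number and an optional ending a, l, x or l1, together with Rpsa and Rplp0, Rplp1 and Rplp2. The rule found 83 genes among the 32531 gene rows, of which 32 code for proteins of the small subunit and 51 for proteins of the large subunit, or for close paralogues of these.

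The libraries came from the whole striatum of adult mice carrying Drd1-EGFP/Rpl10a (line CP73), on a background of FVB/N-Swiss Webster crossed to C57BL/6 for at least 9 generations. The transgene places a fusion of EGFP and the large subunit protein Rpl10a in cells in which the Drd1 regulatory sequences are active, chiefly the direct-pathway medium spiny neurons, and all 10 libraries share it. Tagged ribosomes were captured with antibodies against EGFP, and the bound RNA was sequenced (translating ribosome affinity purification, TRAP-seq). There were 3 pull-downs from cocaine self-administration, 3 from yoked controls and 3 from saline self-administration, in a short access study of intravenous infusion, and 1 library of input total RNA. The labels do not state what was given to the yoked mice, when tissue was taken, or whether libraries stand for separate mice or for pools. A p-value here measures the spread between libraries, which may be technical. The sequencing lane was 1 for cocaine, 2 for yoked, 3 for saline and 5 for the input, so that lane and group cannot be told apart.

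Depth, in units of 1000000 counts in genes, was 32.2 to 33.4 in cocaine, 38.6 to 45.2 in yoked, 12.5 to 28.4 in saline libraries and 40.5 in the input. Values are given as CPM, counts per 1000000 counts in genes. The D1 markers lay above the input, with Drd1 at 592 to 930 CPM in the pull-downs and 331 CPM in the input, whereas Drd2 lay at 11.1 to 63.6 CPM in the pull-downs and 319 CPM in the input. Of 8 lists of other cell types, the summed markers of 6 lay below the input in every pull-down. Those of ependyma and choroid plexus reached 225 CPM in a saline library (input 150 CPM), and those of cortical glutamatergic neurons ran from 24.5 to 123 CPM in the pull-downs (input 46.9 CPM). None of these lists had a marker at 0 in all libraries of a group. Yoked 3 stood apart from the other 8 pull-downs across the whole table, and results that rest on it are given with and without it.

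A cytosolic ribosome joins 4 ribosomal RNAs to about one copy of each ribosomal protein. The small subunit holds the decoding site and the large subunit forms the peptide bond and the exit tunnel. Messages for ribosomal proteins are long known to be regulated as a class: in mammals they begin with a pyrimidine-rich stretch at the first transcribed base, the terminal oligopyrimidine (TOP) tract, through which mTORC1 signalling sets how many ribosomes they recruit. In neurons such messages are also found in dendrites and axons. The pull-down counts messages bound by tagged ribosomes, and in bulk RNA fewer cells of a type cannot be told apart from less RNA per cell.

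The bases around the start site are shown because the pyrimidine tract is the feature the class is known for, and because the members shown include those that stand at the ends of the ratios to the input, in yoked 3 or among the paralogues. RefSeq start sites (table build GRCm38.p6) were matched for 62 of the 83 members, with the first listed start used for a gene. Each window runs 5′ to 3′ on the gene's strand, from 40 bases before the first transcribed base to 20 bases from it on, and capitals mark the longest run of C and T that touches the 10 bases on either side of the start. The genes shown were chosen after their values were seen.
Rpl10a, chr17:28328431-28328490, plus strand: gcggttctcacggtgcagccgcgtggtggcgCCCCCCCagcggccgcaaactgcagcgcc
Rpl41, chr10:128549149-128549208, minus strand: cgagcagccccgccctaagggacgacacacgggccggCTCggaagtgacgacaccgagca
Rpl4, chr9:64173347-64173406, plus strand: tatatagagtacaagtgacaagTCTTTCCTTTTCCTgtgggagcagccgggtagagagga
Rpl34, chr3:130730379-130730438, minus strand: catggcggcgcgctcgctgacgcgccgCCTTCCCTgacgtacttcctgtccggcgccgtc
Rps27l, chr9:66946046-66946105, plus strand: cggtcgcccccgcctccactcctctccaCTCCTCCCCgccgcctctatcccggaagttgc
Rps24, chr14:24490638-24490697, plus strand: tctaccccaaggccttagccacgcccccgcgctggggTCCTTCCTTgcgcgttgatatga
Rpl39, chrX:37085203-37085262, minus strand: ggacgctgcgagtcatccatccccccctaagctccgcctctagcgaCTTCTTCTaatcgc
Rpl22l1, chr3:28805468-28805527, plus strand: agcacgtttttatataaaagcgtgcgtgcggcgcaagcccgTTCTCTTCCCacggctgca
Rpl5, chr5:107900488-107900547, plus strand: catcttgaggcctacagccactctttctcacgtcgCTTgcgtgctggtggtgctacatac
Rps15, chr10:80292391-80292450, plus strand: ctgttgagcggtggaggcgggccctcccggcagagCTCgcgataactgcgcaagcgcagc
Rpl22, chr4:152325686-152325745, plus strand: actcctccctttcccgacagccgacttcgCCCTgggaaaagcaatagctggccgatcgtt
The marked run was 7 bases in Rpl10a, 14 in Rpl4, 8 in Rpl34, 9 in Rps27l, 9 in Rps24, 8 in Rpl39 and 10 in Rpl22l1. It was 3 bases in Rpl41, 3 in Rpl5, 3 in Rps15 and 4 in Rpl22, and the median over the 62 matched members was 6.5. In 8 of the 11 windows the run lies wholly before the listed start, and in Rpl39 and Rpl22l1 it begins after the first transcribed base. The run of Rps24 alone among them holds that base, so the other marked runs are not TOP tracts at the listed starts. In Rpl5, Rps27l and Rpl22 the listed start used lies downstream of the gene's own RefSeq start (107900508, 66944624 and 152324436). The marked runs of these genes therefore do not describe that start. The Rpl5 window reaches its gene start, where a longer, unmarked run of C and T begins.

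A run of at least 8 pyrimidines touched the 10 bases on either side of the listed start in 27 of the 62 matched members (43.5%), against 2360 of 17430 other protein-coding genes (13.5%). The run held the first base at the listed start itself in 14 members (22.6%) and in 554 other protein-coding genes (3.18%). Where the listed start lies downstream of the gene's own start, as in Rpl5, these counts can miss a tract. Over the 300-base window from 250 bases before the start to 50 from it on, the letters CCGGAAG, searched on both strands, were found in 24 of 62 members (38.7%) and 11.8% of other coding genes. CTCTTTCC was found on either strand in 9 members (14.5%) and 2.92% of other coding genes, and AAGATGGC in 5 members (8.06%) and 3.21%. TATAAA was found in 6 members (9.68%) and 13.4% of other coding genes. These are matches of letters within windows, not measured sites.

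Members took 0.219% to 0.34% of the counts in genes in a pull-down and 0.167% in the input. Per group the share was 0.287 ± 0.0526% in cocaine, 0.253 ± 0.00147% in yoked and 0.248 ± 0.0261% in saline libraries (SD, n = 3 each). The share counts only reads that align to a single place, and ribosomal protein genes have many processed pseudogenes, so that a gene's level here may understate its message by an amount that differs from gene to gene. RefSeq names no pseudogene for 19 members, 1 or 2 for 29 and 3 or more for 35, and the medians of these classes were 22.1, 19.8 and 8.07 CPM. Of the class with 3 or more, 16 members lay under 5 CPM. Levels of different members are therefore not compared with each other, and ratios of the same gene between libraries carry the results. For the tests between groups 80 of the 83 members passed the filter on low counts, and Rpl24, Rpl10l and Rpl39l did not.

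Of all members, 71 averaged at least 1 CPM over the pull-downs, 54 at least 5 CPM and 17 at least 50 CPM. Among the 10 members with the most counts were Rpl4, Rps3, Rps15, Rpl41, Rpl8, Rplp2, Rpl15, Rplp1 and Rps21. Rpl4, whose protein lines the exit tunnel, averaged 319.9 ± 35.9 CPM in the pull-downs (SD, n = 9). Rps3, at the entry of the mRNA channel, averaged 158 ± 30.4 CPM. Rps21, the last of these 10, averaged 75.8 ± 13.9 CPM.

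Set against total striatal RNA, ribosomal protein messages lay higher in the pull-downs, as did other short genes. Over the 73 members with at least 1 CPM in the pull-downs or the input, the median ratio of pull-down to input was 1.57-fold (log2 0.65), against a median log2 ratio of -0.10 over all 14412 genes so filtered. The mean ratio was above 1 for 65 members and below 1 for 8. In 55 of 73 members the ratio lay above 1 in each of the 9 pull-downs, a pattern met by 28.3% of all genes, and in 3 it lay below 1 in each, against 38.2% of all genes. Of these 3, Rpl5 and Rpl23a passed the filter only through the input, and 7 members passed only through the pull-downs, so that the filter favours the direction of these 9. With the filter on the mean of both sides, chosen after seeing the data, 54 of 69 members lay above the input in every pull-down, against 4043 of 13612 genes. Only Rpl31 among the members lay below it in each. Without yoked 3, 58 of 73 members lay above the input in each of the other 8, against 4661 of 14410 genes. A mean ratio of at least 2-fold was reached by 18 members (24.7%), against 7.73% of all genes, a share that other short genes also reached, as given below. None had a mean ratio of 0.5 or less, against 21.9% of all genes. There was 1 input library, so no test is given, and the ratio carries the input's own error.

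Genes of short genomic span that are not members showed much of the same excess. Of the 73 members, 65 span at most 5423 bp, a limit under which the 921 shortest of the other genes with at least 5 CPM fall. The median log2 ratio was 0.66 over these 65, against 0.52 over 1278 other protein-coding genes of that span and -0.10 over 11284 other genes of longer span. Among genes of at least 5 CPM in the pull-downs it was 0.75 over 48 members and 0.78 over 874 other protein-coding genes, both of that span. The 5 CPM filter acts on the pull-downs alone, and so favours genes that are high there. With the filter on the mean of both sides, chosen after seeing the data, the median was 0.71 over 62 short members. It was 0.57 over 1205 other short protein-coding genes. Above the input in all 9 pull-downs lay 79% of these members and 55.6% of these other genes. Other short genes thus shared the excess, and whether it was as large in them depended on the filter. Of the short genes of at least 5 CPM, 40 of 48 members (83.3%) lay above the input in all 9 pull-downs, against 70.3% of the other protein-coding genes. A mean ratio of at least 2-fold was no more frequent in short members than in these genes. It was reached by 26.2% of the 65 short members and 27.5% of the 1278 other short protein-coding genes. At 5 CPM the shares were 31.2% and 36.6%. The share of uniquely aligned reads in no feature was 12.3% to 16.1% in a pull-down and 27.6% in the input. The part of these differences in the ratio was not tested.

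Both subunits showed it. The median log2 ratio was 0.61 over 31 small subunit members and 0.68 over 42 large subunit members, and 24 of 31 small and 31 of 42 large subunit members lay above the input in all 9 pull-downs. By library the median over all 73 members was 0.52, 1.01 and 0.81 in cocaine 1 to 3, 0.61, 0.66 and 0.62 in yoked 1 to 3, and 0.64, 0.78 and 0.44 in saline 1 to 3. The median of every pull-down was thus above 0, and cocaine 2 had the highest and saline 3 the lowest.

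**Figure D1:**
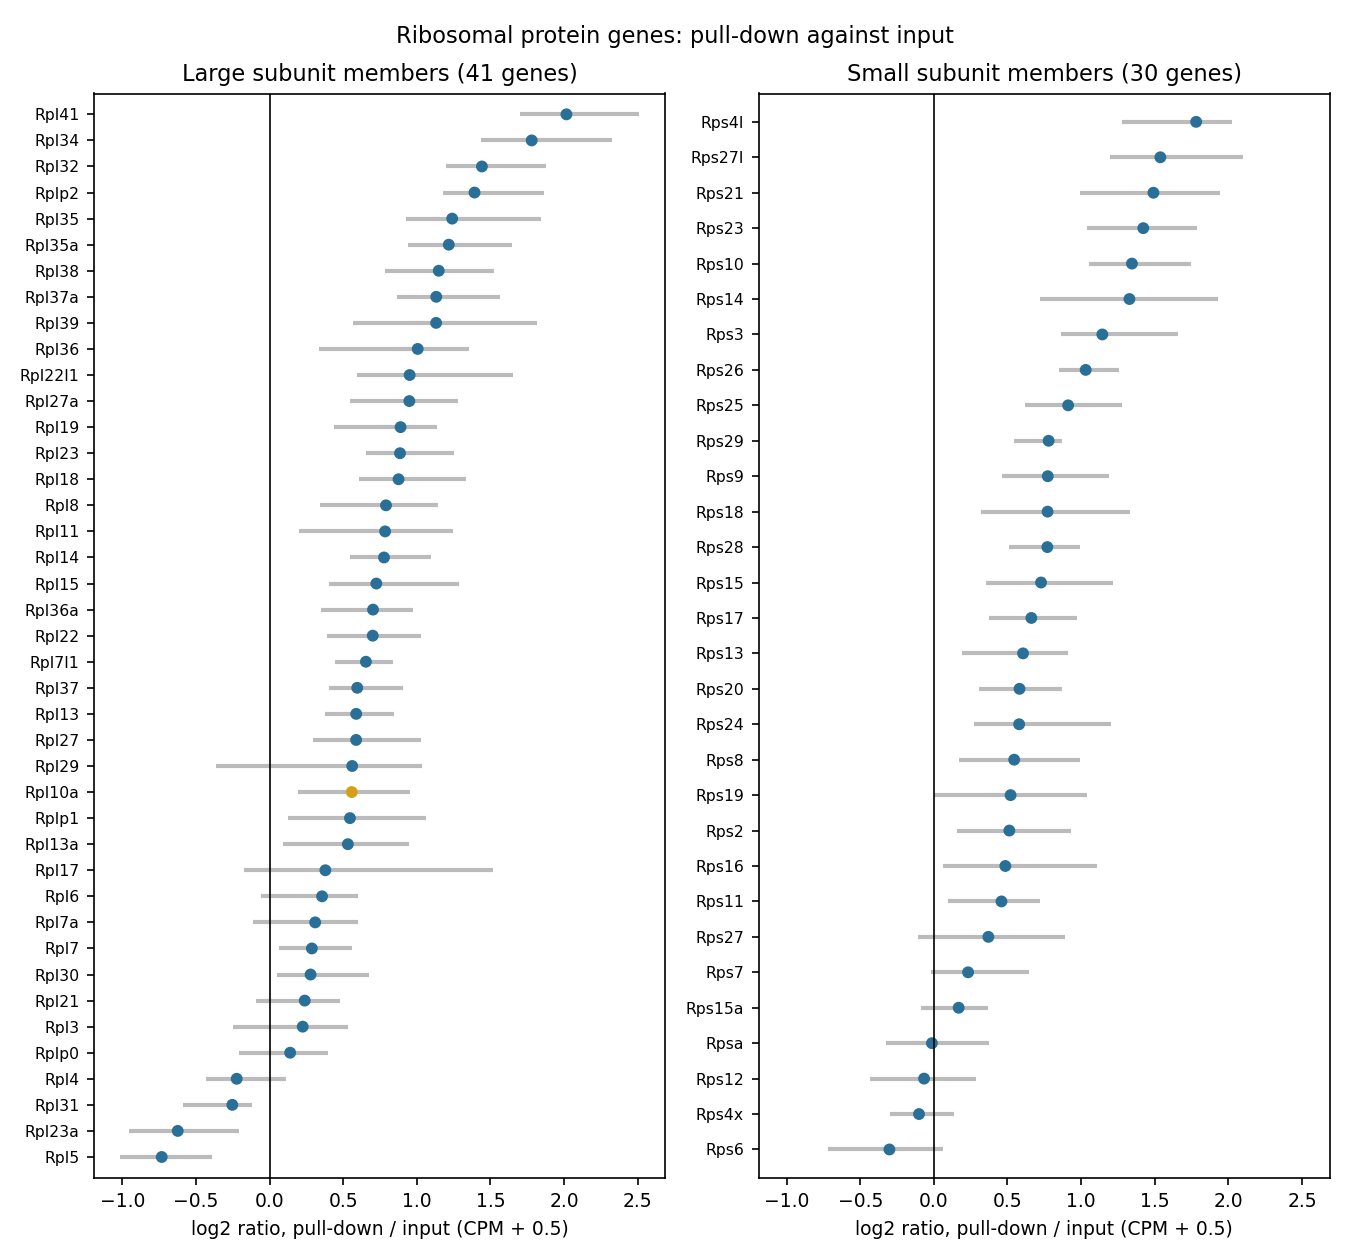
Log2 ratio of pull-down to input for 71 of the 73 members, large subunit on the left and small subunit on the right; the x axis is log2 of the ratio of CPM plus 0.5, points are means over 9 pull-downs, grey bars run from the lowest to the highest pull-down, and Rpl10a is in yellow. Most bars lie wholly to the right of 0, from Rpl41 at 2.02 down to Rpl5 at -0.73, which with Rpl23a entered only through its level in the input.

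The small basic large subunit protein Rpl41 had the highest ratio. Its level was 88.7, 156 and 151 CPM in cocaine 1 to 3, 109, 102 and 118 CPM in yoked 1 to 3, and 98.3, 91.6 and 99.3 CPM in saline 1 to 3, against 26.9 CPM in the input. Every pull-down was at least 3 times the input, and the mean log2 ratio was 2.02 ± 0.30 (SD, n = 9). Rpl34 followed among large subunit genes, with 15.9 to 29.8 CPM in the pull-downs and 5.55 CPM in the input (log2 1.78 ± 0.26). Among small subunit genes Rps4l, a paralogue of Rps4x, had 7.23 to 12.5 CPM in the pull-downs and 2.69 CPM in the input (1.78 ± 0.26). Rps27l, a paralogue of Rps27, had 7.55 to 14.5 CPM and 3.01 CPM (1.54 ± 0.27), and Rps21 had 52.8 to 102 CPM and 26.3 CPM (1.49 ± 0.26). These 5 genes lay above the input in every pull-down.

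At the other end among members of at least 5 CPM stood Rpl31, a protein at the rim of the exit tunnel. It had 11.3, 11.6 and 10.7 CPM in cocaine, 10.9, 10.8 and 8.36 CPM in yoked and 11.8, 10.8 and 10.1 CPM in saline libraries, against 12.8 CPM in the input. All 9 pull-downs lay below the input, by a mean log2 ratio of -0.25 ± 0.14 (SD, n = 9). Rpl4 had 276 to 401 CPM in the pull-downs and 372 CPM in the input (log2 -0.22 ± 0.15), and only cocaine 2 exceeded the input. Rps4x had 11.8 to 16.1 CPM and 14.6 CPM (-0.10 ± 0.12), again with 1 pull-down above the input. Rplp0 (0.14 ± 0.21) and Rps15a (0.17 ± 0.13) completed the 5 lowest, above the input in 6 and 8 of 9 pull-downs. The direction for Rps4x and Rplp0 is within the spread of the pull-downs.

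Rpl5 and Rpl11 enter the large subunit together with 5S ribosomal RNA, and the same pair binds Mdm2 when ribosome assembly is disturbed. Rpl11 had a log2 ratio of 0.78 ± 0.30 and lay above the input in all 9 pull-downs, whereas Rpl5 had -0.73 ± 0.24 and lay below it in all 9. Both were low, Rpl11 at 1.94 CPM and Rpl5 at 0.50 CPM on average in the pull-downs, and Rpl5 had 46 counts in the input, so these ratios rest on few uniquely aligned reads. Rpl5 passed the 1 CPM filter only through the input and Rpl11 (0.89 CPM in the input) only through the pull-downs, so their opposite directions are what the filter favours, and no difference is read from them. In the P stalk, which recruits and activates translation factors, Rplp2 had 1.39 ± 0.23, Rplp1 0.55 ± 0.32 and Rplp0, the base of the stalk, 0.14 ± 0.21.

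Around the exit tunnel 4 of 7 usable members lay above the input and 3 below by their mean. Rpl35 (log2 1.24 ± 0.28), Rpl38 (1.15 ± 0.21) and Rpl39 (1.13 ± 0.36) were high in all 9 pull-downs, as was Rpl19 (0.89 ± 0.20). Rpl4, Rpl31 and Rpl23a were lower than the input, Rpl23a at -0.62 ± 0.24 with 48 counts in the input, through which alone it passed the filter. On the mRNA entry and decoding side all 5 listed proteins lay above the input in every pull-down, as did 55 of the 73 members and 28.3% of all genes. With 5 genes, no trait of that side is read from this. Their median was 0.73, highest in Rps3 (1.14 ± 0.25) and lowest in Rps2 (0.51 ± 0.24). The list holds Rps13, whose place on that side is doubtful, and lacks Rps23, named below at the decoding site. Of 9 members whose human genes are mutated in Diamond-Blackfan anaemia, an inherited failure of red cell production, 8 lay above the input by their mean, from Rps10 at 1.35 ± 0.23 down, and Rpl5, which the filter kept for its level in the input, below. By their mean, 65 of the 73 members and 45.7% of all genes lay above the input.

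Across the 73 members the ratio's Spearman correlation with the genomic span of the gene was -0.20, and across 12765 other genes -0.28. With the mean CPM of the member it was 0.25. The genes share the same libraries and depth and are not independent replicates, and the correlations are given as descriptions.

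Rpl10a, the protein that carries the tag, is itself a member. It had 5.81, 8.70 and 8.08 CPM in cocaine 1 to 3, 6.68, 5.79 and 5.30 CPM in yoked 1 to 3, 4.93, 6.78 and 7.18 CPM in saline 1 to 3, and 4.24 CPM in the input. Every pull-down lay above the input, and the groups overlapped. These values rest on 85 to 291 counts per pull-down and 172 in the input. The mean log2 ratio to the input was 0.56 ± 0.25 (1.47-fold), which ranked 45 of 73 from the highest member. The counts do not show whether reads of the transgene's message are among those assigned to Rpl10a.

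**Figure D2:**
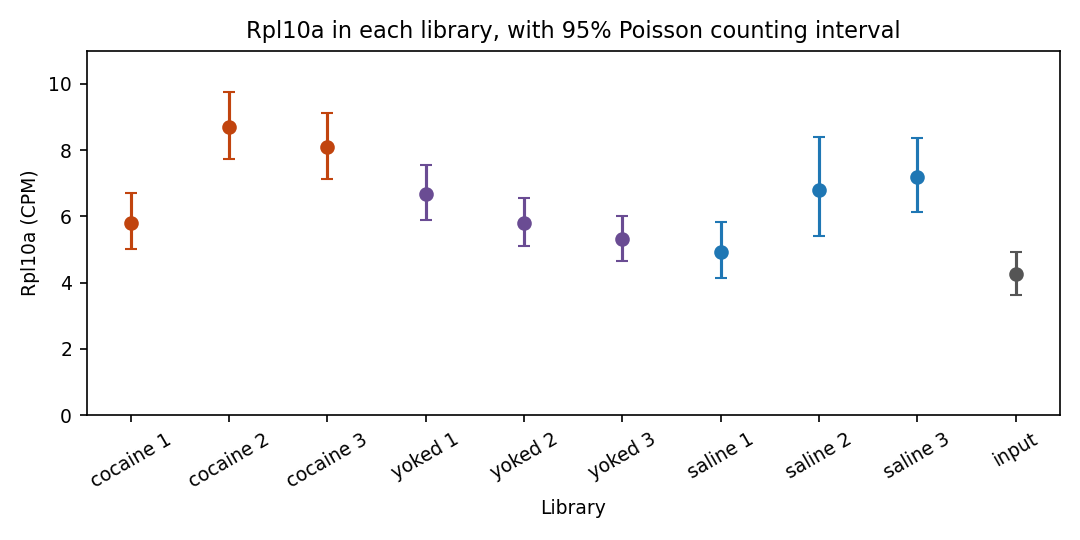
Rpl10a level in CPM (y axis) in each of the 10 libraries (x axis: cocaine, yoked, saline, input), with bars for the 95% Poisson interval, which covers counting error only. The pull-downs run from 4.93 CPM in saline 1 to 8.70 CPM in cocaine 2, above 4.24 CPM in the input, whose interval of 3.63 to 4.93 CPM overlaps those of yoked 3 and saline 1.

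Some of the counting intervals overlapped. The 95% Poisson interval was 7.73 to 9.76 CPM in cocaine 2, 4.66 to 6.02 CPM in yoked 3 and 4.15 to 5.82 CPM in saline 1, against 3.63 to 4.93 CPM in the input. Set against the median of the other members in the same library, Rpl10a lay 0.38 higher on the log2 scale in saline 3 and 0.34 lower in saline 1, with the other pull-downs between -0.16 and 0.19. The widest difference in this measure was thus within the saline group.

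By edgeR's quasi-likelihood test Rpl10a had a log2 fold change of 0.32 ± 0.24 (SE) for cocaine against saline, with an adjusted p of 0.9994. It was 0.37 ± 0.24 for cocaine against yoked (edgeR adjusted p 0.974) and -0.05 ± 0.24 for yoked against saline (edgeR adjusted p 0.9993). None of these passed. The value for cocaine against saline was 0.50 without cocaine 1, 0.20 without cocaine 2 and 0.15 without saline 1. That for yoked against saline changed sign in 4 alternatives, among them 0.10 without saline 3.

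Members moved together from library to library, as seen in the deviation of each gene from its mean over the 9 pull-downs. The median deviation over the 71 members of at least 1 CPM was -0.13, 0.35 and 0.11 on the log2 scale in cocaine 1 to 3, -0.04, -0.01 and -0.11 in yoked 1 to 3, and -0.03, 0.04 and -0.24 in saline 1 to 3. Cocaine 2 was the highest and saline 3 the lowest, and the 3 cocaine libraries spread over a wider range than the 3 of either other group. Small subunit members had medians of -0.18, 0.36 and 0.20 in cocaine and large subunit members -0.11, 0.34 and 0.09. The subunits therefore moved alike, and the ratio of summed small to summed large subunit counts stayed between 0.621 and 0.676 in the pull-downs, against 0.559 in the input.

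**Figure D3:**
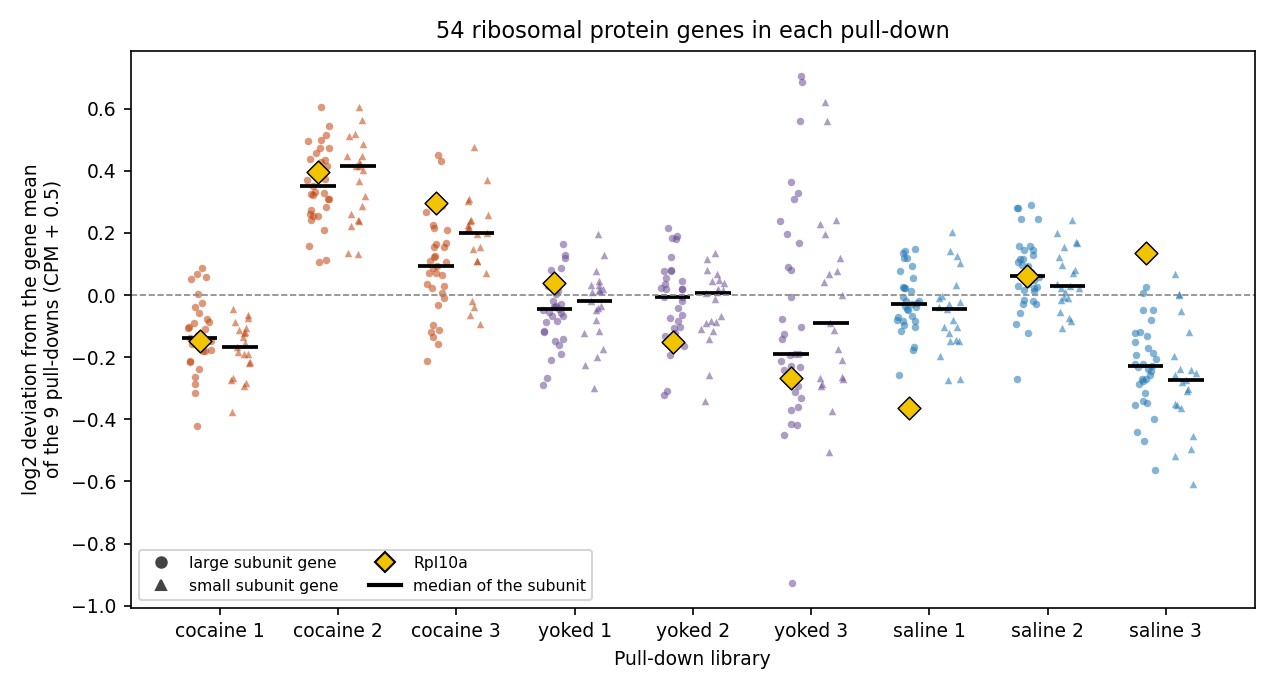
Log2 deviation of each of 54 members with at least 5 CPM from its own mean over the 9 pull-downs (y axis) by pull-down (x axis), with circles for large and triangles for small subunit genes, bars for the median of each subunit and yellow diamonds for Rpl10a. All 54 genes lie above 0 in cocaine 2, while yoked 3 has the widest spread, from 0.71 to -0.93.

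Of the 54 members with at least 5 CPM, 43 had their highest value in cocaine 2, where 11.3% of the other genes had theirs. The lowest value fell in saline 3 for 27 members (50%, against 13% of other genes), in yoked 3 for 13 (24.1%, against 28.5%) and in cocaine 1 for 8 (14.8%, against 2.82%). For Rps14, a small subunit protein near the mRNA exit, the levels were 46.7, 85.8 and 78.4 CPM in cocaine, 51.9, 52.9 and 59.4 CPM in yoked and 49.0, 61.2 and 36.7 CPM in saline libraries. Cocaine 1 thus lay within the range of the saline libraries for this gene, and cocaine 2 and 3 above all others. Rps14 was chosen after its values were seen.

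The median correlation between pairs of these 54 members across the 9 pull-downs was 0.62, and 0.74 across the 8 without yoked 3, with libraries, depth and scaling shared by all genes. No such value is given for pairs of other genes, so it is not read as particular to the members. Rpl10a had a correlation of 0.61 with the median of the others, which ranked 14 of 54 from the lowest. Short genes that are not members moved partly the same way. The tenth of other genes with the shortest genomic span (921 genes, at most 5423 bp) had a median deviation of -0.00, 0.18 and 0.06 in cocaine 1 to 3, 0.03, -0.11 and -0.09 in yoked 1 to 3, and 0.06, 0.01 and -0.13 in saline 1 to 3. Of the 83 members, 74 are at or under that span. Whether gene length or RNA quality has a part in the members' pattern was not tested beyond the fit with a span trend given below.

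The mean log2 CPM of glial markers was 3.27, 3.09 and 2.34 in cocaine 1 to 3, 3.36, 4.18 and 2.16 in yoked 1 to 3, 2.92, 3.51 and 2.15 in saline 1 to 3, and 5.50 in the input. The summed level of 11 astrocyte markers ran from 234 to 491 CPM in cocaine, 242 to 1142 CPM in yoked and 228 to 670 CPM in saline libraries, and was 2659 CPM in the input. Cocaine 2, where the ribosomal protein messages were highest, was neither the highest nor the lowest in the mean of the glial markers. Saline 3, where these messages were lowest, had the lowest glial mean, 2.15, beside 2.16 in yoked 3. Replicate 3 had the lowest glial mean in each group. The share of the ribosomal RNA row Rn45s was 11.5% in cocaine 1, 16.9% in cocaine 2 and 20.5% in cocaine 3, 14.7% to 15.2% in yoked and 10.5% to 14.3% in saline libraries. The part of either in the members' levels was not tested.

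The spread among members was widest in yoked 3. The SD over the 54 members of the deviation was 0.329 there and 0.105 to 0.159 in the other 8 pull-downs, and for other genes it was 0.41 there and 0.147 to 0.265 in the others. In yoked 3, 8 members (14.8%) lay above and 13 (24.1%) below all 8 other pull-downs, against 27.5% and 28.5% of other genes, so that both shares of the members lay below those of other genes. Rpl22l1 had 29.9 CPM in yoked 3 and 14.1 to 22.1 CPM in the others. Rpl39 had 46.4 CPM against 19.2 to 37.2, Rps24 75.8 CPM against 39.7 to 66.2 and Rpl15 138 CPM against 74.7 to 111. Rpl29 went the other way, with 14.5 CPM in yoked 3 and 23.1 to 39.0 CPM in the others.

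**Figure D4:**
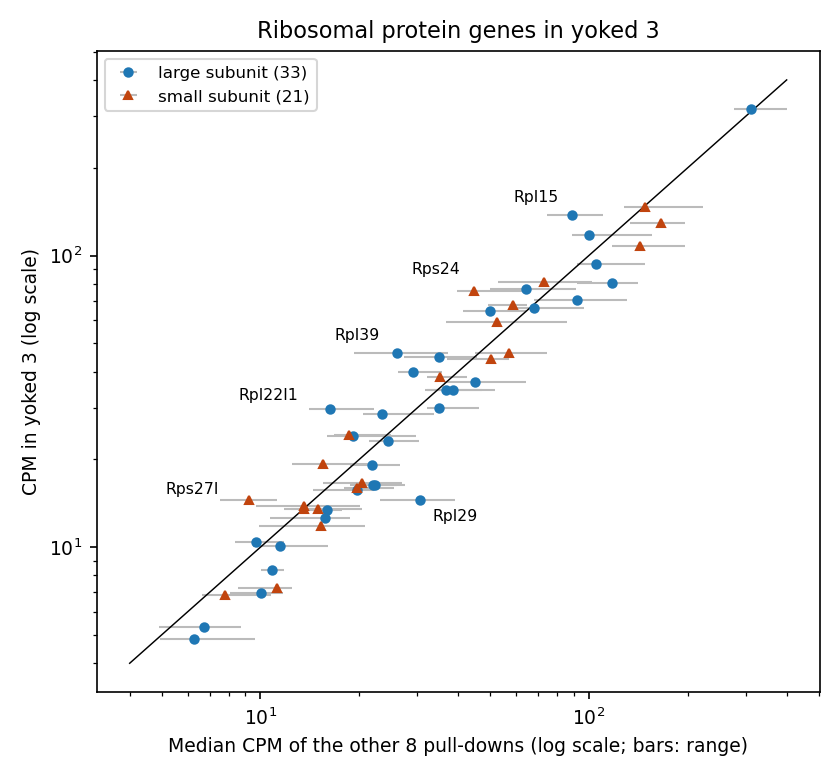
Level in yoked 3 (y axis, CPM, log scale) against the median of the other 8 pull-downs (x axis, CPM, log scale) for 54 members, with grey bars for the range of those 8 and a line of equality; blue circles are large and orange triangles small subunit genes. Rpl22l1, Rpl39, Rps24, Rpl15 and Rps27l lie above the line and Rpl29 below it, at 14.5 CPM in yoked 3.

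The highest and lowest members in yoked 3 came from both subunits. The next highest after those named was Rps27l, with 14.5 CPM in yoked 3 and 7.55 to 11.2 CPM in the others, and Rpl23 had 39.9 CPM against 26.2 to 35.7. Rps4l was low, with 7.23 CPM against 8.58 to 12.5, and so was Rpl8, with 80.6 CPM against 92.2 to 141. This spread was shared by the rest of the table: 47.0% of other genes lay at least 0.3 from their mean on the log2 scale in yoked 3.

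The comparison of cocaine with saline self-administration asked whether ribosome-bound messages differed with the drug taken. No member was called by edgeR at an adjusted p of 0.05, and neither was any of the 14680 genes tested (0% called; smallest adjusted p 0.9994). DESeq2 and limma-voom called no member either. Of 80 members tested, 74 had a higher estimate in cocaine, against 50.6% of all genes, with a median log2 fold change of 0.25 over the members and 0.004 over all genes. At an unadjusted edgeR p under 0.05 there were 11 higher and 0 lower members, against 1.79% and 1.05% of all genes. The 3 cocaine libraries all lay above the 3 saline libraries in 8 members, against 6.38% of all genes, and below them in 0, against 5.08%.

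Among the members with separated groups was Rpl27a, with 37.5, 45.5 and 37.1 CPM in cocaine libraries, against 35.4, 33.8 and 27.3 CPM in saline libraries. By these CPM the nearest libraries of the 2 groups, cocaine 3 and saline 1, were about as close as the libraries within a group. On TMM-scaled CPM, by which separation was read, the nearest were cocaine 1 at 36.7 and saline 1 at 33.6. The log2 fold change was 0.38 ± 0.17 (SE, edgeR adjusted p 0.9994). Rpl41, above, had 0.52 ± 0.20 and its groups overlapped in cocaine 1. Rpl27a was chosen after its values were seen.

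The highest estimates belonged to genes of few counts. Rpl12, which binds at the base of the P stalk, had 0.943, 1.35 and 1.12 CPM in cocaine against 0.774, 0.639 and 0.470 CPM in saline libraries, a log2 fold change of 0.91 ± 0.48 (SE), from 8 to 45 counts. Rps27a, made as a fusion with ubiquitin, had 0.65 ± 0.46 and Rps23, at the decoding site, 0.63 ± 0.35. The lowest were Rpl26 at -0.56 ± 0.74, Rpl9 at -0.52 ± 0.65 and Rps27 at -0.40 ± 0.43. None of the 6 was called. Rps27 was -0.15 without cocaine 1, -0.22 without saline 2 and -0.74 without cocaine 2, and Rpl9 was -0.34 without saline 2 or cocaine 2. Rpl26 turned to 0.30 without saline 1, which held 21 of its counts against 2 and 6 in the other saline libraries.

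**Figure D5:**
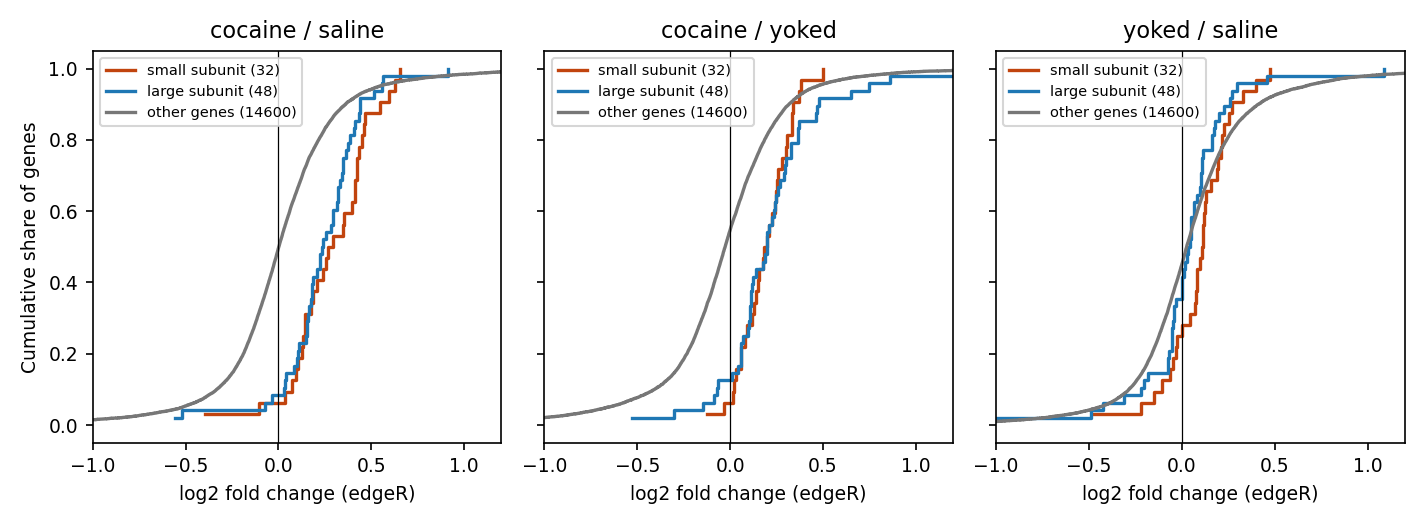
Cumulative share of genes (y axis) by edgeR log2 fold change (x axis) in the 3 comparisons, for 32 small subunit members, 48 large subunit members and 14600 other genes; the x axis is cut at -1 and 1.2. Both subunits lie to the right of the other genes in the 2 comparisons with cocaine, with medians of 0.25 and 0.20 over the members, and near them in yoked against saline, with 0.07.

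The small and large subunits had like medians, 0.28 over 32 small subunit members and 0.24 over 48 large subunit members. Without cocaine 2 the median was 0.14, with 60 of 80 members higher and 0 at an unadjusted edgeR p under 0.05. Without cocaine 1 it was 0.39, with 77 higher and 28 at that p, and without cocaine 3 it was 0.23, with 1 at that p. Without saline 3 it was 0.20 and without saline 1 it was 0.25, with 1 and 3 members at that p, and without yoked 3 it was 0.26, with 17. With a trend over genomic span as an offset it was 0.14, with 63 higher and 1 at that p, and no member was called in any of these fits.

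The comparison of cocaine with yoked mice set self-administration of cocaine beside a yoked control whose infusions the labels do not describe. It shares the cocaine libraries with the comparison above and is not independent of it. No member and no other gene was called by edgeR (0% called; smallest adjusted p 0.974), nor by DESeq2 or limma-voom. Of 80 members 72 had a higher estimate in cocaine, against 45.5% of all genes, with a median of 0.20 over the members (0.19 small, 0.20 large) and -0.03 over all genes. At an unadjusted edgeR p under 0.05 there were 1 higher and 0 lower members, against 1.36% and 1.22% of all genes. Cocaine libraries all lay above the yoked ones in 4 members, against 3.42% of all genes, which is close to the background, and all below in 0, against 3.34%. Without cocaine 2 the median was 0.06 and 49 members were higher, without cocaine 1 it was 0.34, with 21 members at an unadjusted edgeR p under 0.05, and with the span trend as an offset 0.09, with 56 higher.

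Rpl3l, a paralogue of Rpl3 best known from heart and skeletal muscle, had the highest estimate. Its counts were 10, 2 and 27 in cocaine libraries and 1, 5 and 4 in yoked libraries, which overlap, and the log2 fold change was 2.34 ± 0.94 (SE; edgeR adjusted p 0.974). Without cocaine 3 it was 1.16, and limma-voom gave 1.76. Rpl12 had 0.86 ± 0.46 with separated groups, at 0.699, 0.620 and 0.575 CPM in yoked libraries, and Rpl28 0.75 ± 0.67, which was 1.25 without yoked 2 and 0.35 without yoked 3. The lowest were Rpl17 at -0.53 ± 0.52, Rpl9 at -0.30 ± 0.63 and Rpl22l1 at -0.15 ± 0.27. Rpl17 and Rpl22l1 rest on yoked 3: Rpl17 had 42, 43 and 30 counts in cocaine libraries and 32, 49 and 138 in yoked libraries, and without yoked 3 the values were 0.29 for both genes.

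The comparison of yoked with saline mice had the smallest median over the members with all libraries, though without cocaine 2 that of cocaine against yoked was 0.06 and that of yoked against saline 0.07. No member and no other gene was called by edgeR (0% called; smallest adjusted p 0.9993), nor by DESeq2 or limma-voom. Of 80 members 52 had a higher estimate in yoked, against 55% of all genes, with a median of 0.07 over the members (0.11 small, 0.04 large) and 0.03 over all genes. There were 0 higher and 1 lower members at an unadjusted edgeR p under 0.05, against 1.16% and 0.681% of all genes. In 3 members the yoked libraries all lay above the saline ones, against 3.3% of all genes, and in 2 below, against 3.39%. The median over the members was 0.12 without saline 2 and 0.01 without saline 3, where that of the large subunit was -0.04; scaling by library totals only gave -0.01 for the large subunit.

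The highest estimates were Rpl17 at 1.09 ± 0.54, Rps27a at 0.47 ± 0.45 and Rpl39, which lines the exit tunnel, at 0.46 ± 0.25. The lowest were Rpl3l at -2.41 ± 0.96, Rpl26 at -0.49 ± 0.73 and Rps27 at -0.48 ± 0.43 (SE; none called by edgeR). Rpl17 and Rpl39 were again high in yoked 3, and without it their values were 0.27 and 0.08. Rpl3l had 1, 5 and 4 counts in yoked libraries and 9, 5 and 14 in saline libraries, which were shallower. Its levels were 0.0259, 0.115 and 0.0884 CPM in yoked libraries, all below 0.317, 0.399 and 0.599 CPM in saline libraries. Rpl26 turned to 0.37 without saline 1.

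Paralogues of ribosomal proteins that fall under the rule were read as ratios of uniquely aligned counts within a library, which depend on how much of each gene can be aligned uniquely and are compared only between libraries. Rpl22l1 over Rpl22 ran from 0.274 in cocaine 3 to 0.463 in yoked 3, with 0.292 in the input. Rps27l over Rps27 ran from 4.65 in saline 2 to 16.0 in yoked 3, with 3.39 in the input, and rests on 26 to 62 counts of Rps27 in a library. Rps4l over Rps4x ran from 0.533 in yoked 3 to 0.896 in saline 1, with 0.185 in the input, so that every pull-down lay above the input. Rpl7l1 over Rpl7 ran from 0.639 to 0.821 in the pull-downs, with 0.543 in the input. Yoked 3 held an end of the range in 3 of these 4 pairs. Without it Rpl22l1 over Rpl22 ended at 0.423 in saline 2, Rps27l over Rps27 at 11.3 in cocaine 1, and Rps4l over Rps4x at 0.668 in cocaine 1. Rpl3l over Rpl3 stayed at or below 0.056, Rpl39l over Rpl39 at or below 0.0193, and Rpl10l had counts in yoked 3 only, 2 in all.

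Genes of ribosomal proteins whose symbols the rule does not match gave a similar picture against the input. Rps3a1 averaged 29.0 CPM in the pull-downs and 20.9 CPM in the input (log2 ratio 0.46 ± 0.15), and Gnb2l1, the older symbol of Rack1, 78.5 and 53.4 CPM (0.54 ± 0.17). Fau, a ubiquitin-like fusion that yields Rps30, had a log2 ratio of 1.39 ± 0.33 and Rpl36al 0.44 ± 0.36. These 4 had a mean above the input. In cocaine against saline all 4 had a higher estimate, from 0.04 for Rps3a1 to 0.33 for Fau, and in cocaine against yoked likewise, from 0.08 for Gnb2l1 to 0.67 for Rpl36al. None was called by edgeR.

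Other genes of ribosome supply were counted for comparison. Other messages with a TOP tract, such as elongation factors, had a median log2 ratio to the input of 0.13, with 8 of 14 above and 6 below, from Eef1b2 at 1.25 to Pabpc1 at -1.53. Ribosome biogenesis factors had a median of 0.67, with 36 of 40 above, from Nop10 at 1.85 to Sdad1 at -0.61. Genes of RNA polymerase I, subunits shared with other polymerases included, and of its factors had a median of 0.69, with 14 of 19 above, from Polr2h at 1.88 to Taf1d at -1.26. Genes of the mTORC1 and S6 kinase pathway had -0.12, with 7 of 15 above, from Rheb at 0.98 to Eif4ebp2 at -1.13.

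In cocaine against saline these lists had medians of 0.13 (10 of 14 TOP messages higher), 0.02 (23 of 40 biogenesis factors higher), 0.13 (14 of 19 polymerase I genes higher) and -0.11 (4 of 15 mTORC1 pathway genes higher). In cocaine against yoked they were 0.02, 0.01, 0.02 and -0.06, and in yoked against saline 0.10, 0.04, 0.07 and -0.10. No gene of these lists was called by edgeR in any comparison. The members' medians of 0.25 and 0.20 in the comparisons with cocaine stand beside these as descriptions.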

How the data were processed

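Members and gene lists were chosen with earlier results of these data known. The authors deposited whole-number counts of reads per gene symbol. Per the submitters' processing notes, mm10 was the build and the tools were STAR 2.0.0e and HTSeq. Annotation, strandedness and counting mode were not given in the sources used here, and overlapping genes on opposite strands cannot be told apart. Reads that align to more than 1 place were not counted: 1.07 to 1.60 such alignments stood beside each gene count of a pull-down, 1.13 for the input. Rows naming no gene (6 per file) were left out of totals and tests; of the uniquely aligned reads, 12.3% to 16.1% of a pull-down and 27.6% of the input lay in no feature. Counting intervals cover counting error only, since reads carry no molecular identifiers.

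From the deposited counts, CPM were counts per 1000000 gene counts. Ratios to the input were log2 of CPM plus 0.5 over input CPM plus 0.5, averaged over 9 pull-downs, for genes with at least 1 CPM. Groups were compared with edgeR 4.0.16 in R 4.3.3 (TMM, filterByExpr, robust quasi-likelihood F test, group as the only term, 9 pull-downs, adjusted p under 0.05 by Benjamini-Hochberg over 14680 genes; common biological coefficient of variation 23.7%), which was tested on simulated data. Separation of groups was read on TMM-scaled CPM. Standard errors are the log2 fold change over the root of F. Alternatives used DESeq2 1.42.0, limma 3.58.1, other scalings and filters, a replicate block, a genomic span trend and leaving out each library. Named were Rpl10a; the 5 highest and 5 lowest ratios to the input at a mean of at least 5 CPM; the 3 highest and 3 lowest fold changes per comparison; the 10 members with the most counts; paralogues; and ribosomal protein genes outside the rule. Other lists have up to 2 examples. Results for some named genes are not reported here. Roles within the ribosome were also listed gene by gene, and genes in yoked 3 were chosen after their values were seen.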

Additional observations from a re-analysis of the deposited data

Results flagged for a closer look

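Of 17 quantities examined for a pull-down far from the other 8 (Dixon's test at 95%), 2 were exceeded, both in yoked 3, where chance gives about 1 in 20. The SD over the 54 members of the log2 deviation was 0.329 in yoked 3, above all other pull-downs. The log2 ratio of Rpl31 to the input was -0.59 in yoked 3, the lowest of the 9, from 8.36 CPM in yoked 3 against 12.8 CPM in the input; the next lowest level was 10.1 CPM, in saline 3. Without yoked 3, Rpl31 was still below the input in all of the other 8 pull-downs.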

How the results depend on the processing

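No member was called in any of the 21 alternatives of any comparison. Over all genes, 0 were called in each comparison as reported and 1 under some alternatives, never a member: in cocaine against saline 1 under DESeq2, with the 6 libraries compared alone, with cocaine 2 and yoked 3 both left out, with the replicate block, and with the block plus the span trend; in cocaine against yoked 1 with the replicate block and with the block plus the span trend; in yoked against saline 1 with the replicate block, with the block plus the span trend and with cocaine 2 and yoked 3 both left out. Leaving out 1 library gave 0 to 1 called genes in cocaine against saline, 0 in cocaine against yoked and 0 to 1 in yoked against saline. Replicate numbers were not taken as pairing the samples in the main fit, although same-numbered libraries tended to be more alike. They correlated from -0.006 to 0.24 over all genes, above 0.1 in 6 of 9 pairs, against -0.25 to 0.15 for differently numbered libraries. Same-numbered pairs of replicates 2 and 3 ran from 0.13 to 0.24, and those of replicate 1 from -0.006 to 0.06. What the replicate numbers stand for was not tested. With the replicate block no member was called. The members' median was then 0.24 in cocaine against saline, 0.18 in cocaine against yoked and 0.06 in yoked against saline.

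The median over the members kept its sign throughout, from 0.12 (block plus span trend) to 0.39 (without cocaine 1) in cocaine against saline, 0.06 (without cocaine 2) to 0.34 (without cocaine 1) in cocaine against yoked, and 0.01 to 0.12 in yoked against saline. Values that turned their sign were Rpl26 without saline 1 (0.30 in cocaine against saline, 0.37 in yoked against saline); Rpl17 and Rpl22l1 in cocaine against yoked without yoked 3 (0.29 each) and with cocaine 2 and yoked 3 left out (Rpl17 0.20, Rpl22l1 0.13); and Rpl10a in yoked against saline under limma-voom (0.00239), without yoked 3 (0.00186), without saline 3 (0.10) and with cocaine 2 and yoked 3 left out (0.00536). With 1 library left out these ran from -0.86 to 0.30 and from -0.80 to 0.37 for Rpl26, from -0.86 to 0.29 for Rpl17, from -0.34 to 0.29 for Rpl22l1 and from -0.22 to 0.10 for Rpl10a. The cause was not tested beyond the libraries left out. Ratios to the input gave 0.53 to 0.73 for the members and 0.45 to 0.60 for Rpl10a over 17 alternatives of scaling, pseudocount, filter and libraries, while the median over all genes was 0.05 with a filter at 5 CPM. With plain CPM, 7 members were separated, all higher, in cocaine against saline (3.76% of all genes), 3 higher in cocaine against yoked (2.87%), and 2 higher and 2 lower in yoked against saline (2.48% and 4.42%). The alternatives with cocaine 2 and yoked 3 left out, with the block plus the span trend, with plain CPM, and with the input filter on the mean of both sides were chosen after seeing the data. Depth limits the low members most: 11 had fewer than 10 counts in some pull-down.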
